A study of Mus musculus with 12 samples.

Results

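The comparison described here is the step from circadian time (CT) 16 to CT20 in whole urinary bladder, that is from the earlier to the later part of the subjective night, when mice are active. Arrays were chosen by their titles, and 4 of the 12 arrays of the series belong to it, 2 at CT16 and 2 at CT20. The mice of both groups were wild-type C57BL/6 females, 10 weeks old, which had spent 2 weeks under light and dark periods of 12 h each before constant darkness, so that time of death was the only labelled difference. How long they had been in darkness is not stated. The labels do not tie an array to a single mouse, so p-values measure the spread between arrays, which may be technical, and CT16 is given by 2 array titles but is missing from the times named in the series' design text. Total RNA was labelled with Cy3 and hybridised to Agilent 1-colour mouse arrays, and both times lay on 1 slide, so the step is a difference within a slide.

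The clock of mammalian cells is a loop of transcription. BMAL1 (gene Arntl) with CLOCK or NPAS2 switches on genes that carry E-boxes, among them the Per and Cry repressors, the nuclear receptors Nr1d1 and Nr1d2 (REV-ERB alpha and beta) and the output factor Dbp. PER and CRY proteins then shut off BMAL1 and CLOCK, while REV-ERB proteins repress Arntl through elements that ROR proteins use to activate it. In the bladder, an organ that stores urine in a lumen lined by urothelium and wrapped in smooth muscle, connexin 43 (gene Gja1) couples muscle cells.

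Levels are given as log2 of the processed signal minus the 75th percentile of the same array, so that 0 is that percentile; a difference of 1 is a 2-fold change, and levels of different probes are not comparable. The 75th percentile lay between 844 and 984 intensity units over the 12 arrays, and 64.2% to 70.2% of spots were well above background. The 2 CT16 arrays correlated at r = 0.993 across genes and the 2 CT20 arrays at r = 0.985, against 0.985 to 0.991 between the times. The log2 difference between paired arrays had an SD of 0.391 at CT16 and 0.589 at CT20, the widest of the 6 times. All 17 markers of urothelium, smooth muscle, fibroblasts and endothelium were well above background on all 4 arrays, among them the uroplakin gene Upk2 at 6.06 to 6.44 and the smooth muscle actin gene Acta2 at 8.53 to 8.65. Transcripts of other tissues differed between arrays: the summed level of 18 hepatocyte genes was 26.9 and 31.6 at CT16 and 17.2 and 82.1 at CT20, in multiples of the 75th percentile, so the 2 CT20 arrays stood far apart. The summed level of 17 adipocyte genes was 657 and 633 at CT16 and 413 and 517 at CT20.

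Between CT16 and CT20 a single gene passed the test: Nr1d2, which encodes the clock repressor REV-ERB beta, fell. Around it, without passing, most clock output genes stood lower at CT20, led by Ciart, Dbp, Usp2 and Tef, the repressor genes Per2 and Per1 stood lower, and the activator gene Arntl stood higher. Outside the clock, the matrix protein gene Spon2 was 4.12-fold higher and Gja1 was 2.01-fold lower, also without passing. In numbers, 1 of 18390 genes (0.00544%) was lower and 0 were higher at an adjusted p under 0.05 (limma with Benjamini-Hochberg adjustment over all genes). At an unadjusted p under 0.05 there were 2627 genes (14.3%), 1343 higher (7.3%) and 1284 lower (6.98%). The arrays of the times did not overlap for 4677 genes in the higher direction (25.4%) and 4998 in the lower (27.2%), 52.6% in all. Whatever the test, 48.7% of genes had a difference above 0 and 51.3% one below 0, 2.34% had a difference of at least 1 in either direction, and the median difference of all genes was -0.01. With 2 arrays against 2, a permutation of a single gene's values cannot give a two-sided p below 0.333, so every call rests on the spread that limma pools over all 12 arrays and all genes.

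**Figure D1:**
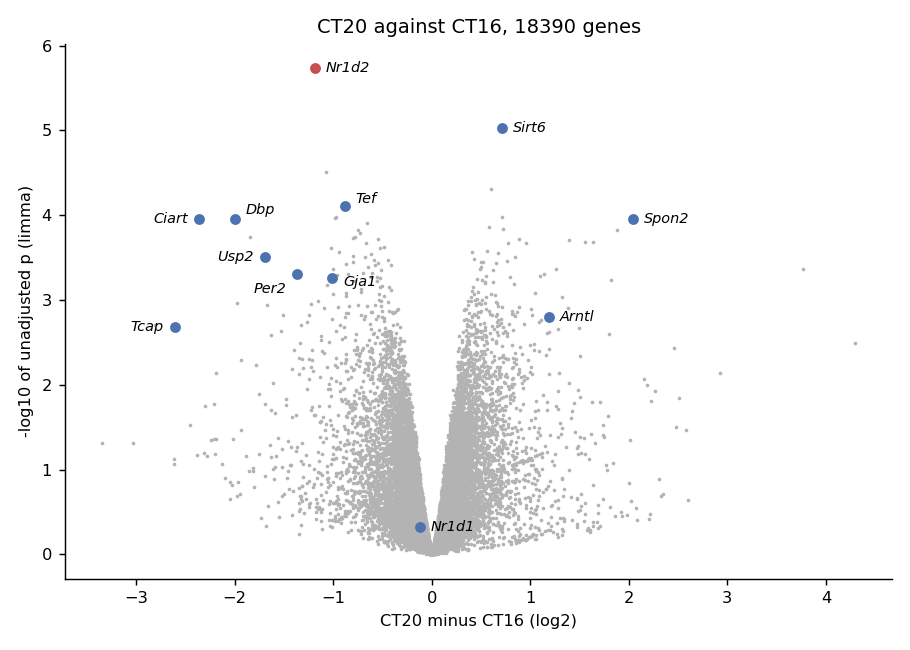
Each of 18390 genes at its difference CT20 minus CT16 (log2, x axis) and the -log10 of its unadjusted limma p (y axis); named genes are enlarged, red where the adjusted p was under 0.05. Nr1d2 is the only red point, Sirt6 has the next smallest p, and Ciart, Dbp, Usp2 and Per2 lie to the left at larger differences.

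Nr1d2 stood at 1.51 and 1.47 on the CT16 arrays and at 0.34 and 0.26 on the CT20 arrays. The groups lay far apart relative to their spread, with an SD of 0.03 at CT16 and 0.06 at CT20 (n = 2 each). It fell by 1.19 ± 0.09 (SE, log2), with a 95% interval from -1.41 to -0.97, which is 2.28-fold (2.13 to 2.43 at 1 SE either side; limma adjusted p = 0.0340). Its probe lies on chromosome 14, 16018965 to 16019024 (mm7, the build of the array files; no annotation of that build was used, so its exon is not given). The call was lost without any single one of the 12 arrays (adjusted p 0.0777 to 0.253) and under 6 of 17 other settings, among them the fit of the 4 arrays alone (adjusted p = 0.270) and the hepatocyte list's mean profile as a covariate (adjusted p = 0.0843). The difference itself stayed between -1.26 and -1.11 in all of these. The slide blocks among the 17 other settings repeat the main fit by design, so they could not lose the call.

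Over the 6 times, the mean of Nr1d2 was lowest at CT20. Its mean level was 0.49 ± 0.11 (SD, n = 2) at CT0, 1.18 ± 0.10 at CT4, 1.94 ± 0.09 at CT8, 1.95 ± 0.06 at CT12, 1.49 ± 0.03 at CT16 and 0.30 ± 0.06 at CT20. CT8 and CT12 did not differ beyond their spread, and the CT16 to CT20 step was the largest of its 6 steps. Its paralog Nr1d1, for REV-ERB alpha, was already near its lowest mean at CT16: it stood at -1.68 and -1.65 at CT16 and at -1.64 and -1.93 at CT20. Those arrays overlap, and the difference was -0.12 ± 0.16, the smallest of the 6 steps of Nr1d1 (95% interval -0.49 to 0.25); it turned to 0.02 without the second CT20 array. Between CT12 and CT16 Nr1d1 had a step of -1.67 against -0.46 for Nr1d2.

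**Figure D2:**
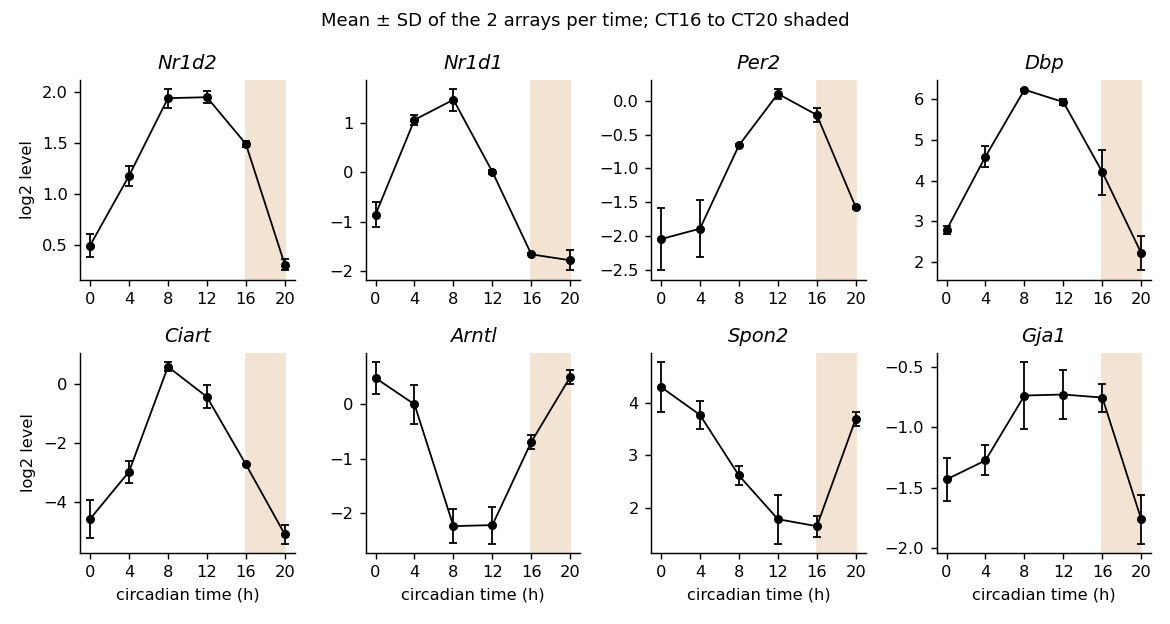
Mean log2 level (y axis) of 8 genes at 6 circadian times (x axis, h), with bars of 1 SD over the 2 arrays of a time and the CT16 to CT20 interval shaded. Nr1d2 drops from 1.49 to 0.30 within the shaded interval while the Nr1d1 points differ by -0.12, and the Arntl and Spon2 points at CT20 lie 1.19 and 2.04 above those at CT16.

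Among the activators, Arntl stood at -0.78 and -0.60 at CT16 and at 0.59 and 0.41 at CT20. The groups did not overlap, and the level at CT20 was close to its CT0 mean of 0.48. The difference was 1.19 ± 0.25, 2.28-fold, with an adjusted p of 0.162, so it did not pass. Npas2, the partner that can take the place of CLOCK, stood at -5.66 and -4.99 and then at -4.76 and -4.39, a difference of 0.75 ± 0.32 (adjusted p = 0.349); with normexp, another background correction, it was 0.14. Clock itself overlapped between times, at 1.41 on both CT16 arrays and at 1.46 and 1.35 at CT20, and Arntl2, a paralog of Arntl, overlapped between times (difference -0.07). The sign of these last 2 depended on the setting.

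Every Period and Cryptochrome gene was lower at CT20 with no overlap between arrays, and none passed. Per2, which encodes a repressor of BMAL1 and CLOCK, stood at -0.14 and -0.28 at CT16 and at -1.56 and -1.59 at CT20. That is a difference of -1.36 ± 0.24, 2.58-fold, the largest of the 6 Per2 steps (adjusted p = 0.139); a second, dimmer Per2 probe gave -0.35. Per1 stood at 0.11 and 0.35 and then at -0.40 and -0.81, a difference of -0.83 ± 0.17 that came after a step of -1.85 between CT12 and CT16. For Per3 the difference was -0.56 (-0.19 under normexp), for Cry1 -0.36 and for Cry2 -0.27. The 2 Cry differences were small next to that of Per2, but each exceeded the gap between the paired arrays.

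The genes that act on PER and CRY proteins went different ways. Btrc, a ubiquitin ligase subunit that marks PER for degradation, stood at -2.77 and -2.69 at CT16 and at -1.96 and -2.16 at CT20, a difference of 0.67 ± 0.13 (adjusted p = 0.162) and the largest of its 6 steps. Fbxl21, which encodes an F-box protein that binds CRY, differed by 0.38 (0.08 under normexp). The kinase gene Csnk1e was lower by 0.30 ± 0.11. Csnk1d gave -0.09 on its brightest probe and 0.10 to 0.29 on 3 others, so its direction is uncertain. Rora, for a nuclear receptor that opposes REV-ERB, differed by -0.22 with overlapping arrays, and Timeless by 0.05. Rorb was measured but too dim to be tested. In all, 19 of 20 core clock genes were tested and 1 passed. At an unadjusted p under 0.05, 4 were higher and 6 lower, against 7.3% and 6.98% of all genes. Without overlap 4 were higher and 10 lower, against 25.4% and 27.2% of all genes. The list's median was -0.22 against -0.01 for all genes.

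Clock output genes formed the list with the lowest median of the bladder and pathway lists, -0.47. None of the 18 passed. At an unadjusted p under 0.05, 10 were lower and 0 higher, against 6.98% and 7.3% of all genes. Without overlap 13 were lower and 1 higher, against 27.2% and 25.4% of all genes. Dbp, the founding PAR-bZIP factor and a direct target of BMAL1 and CLOCK, stood at 4.6 and 3.82 at CT16 and at 2.51 and 1.91 at CT20. The paired arrays differed more from each other than for Nr1d2, yet the lowest CT16 value exceeded the highest CT20 value by a wide margin. The difference was -2.0 ± 0.28, 4.00-fold (adjusted p = 0.136). Tef, of the same family, stood at 2.27 and 1.99 and then at 1.37 and 1.13, a difference of -0.88 ± 0.12; 3 further Tef probes gave -0.70 to -0.85. Hlf, also of that family, differed by -0.79 ± 0.25. Nfil3, a repressor that binds the same D-box elements, overlapped between times, at 1.01 and 1.25 and then 1.17 and 1.17, with a sign that depended on the arrays used.

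Ciart, which encodes the repressor CHRONO, had the largest difference of the clock output list. It stood at -2.71 and -2.73 at CT16 and at -4.86 and -5.31 at CT20, a difference of -2.36 ± 0.33, 5.15-fold (adjusted p = 0.136). Under normexp background correction the difference was -1.19 and in the authors' deposited values -1.14, so the size of the fold at this low signal depended on the background treatment. Usp2, a deubiquitinase gene that follows the clock in many tissues, stood at -0.42 and -0.68 and then at -2.04 and -2.45, a difference of -1.69 ± 0.28 (a second probe gave -1.81). Bhlhe40 (DEC1), an E-box repressor, differed by -0.54 ± 0.21 and its paralog Bhlhe41 by -0.17 with overlapping arrays.

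Several output genes also respond to glucocorticoids. Tsc22d3 (GILZ) stood at 3.12 and 3.10 at CT16 and at 2.30 and 2.02 at CT20, a difference of -0.95 ± 0.19, and 2 other probes both gave -0.94. Klf9 differed by -0.66 ± 0.13 and Klf15 by -0.85 ± 0.33, each the largest of the gene's 6 steps. Fkbp5, a steroid receptor cochaperone gene, stood at -0.95 and -0.98 and then at -2.19 and -2.40, a difference of -1.33 ± 0.32 (adjusted p = 0.182). The list of 18 glucocorticoid-responsive genes shares Per1, Klf9, Tsc22d3 and Cdkn1a with the clock lists. It had a median of -0.32 (-0.17 without the second CT16 array and -0.19 without the first CT20 array). In this list 0 passed, and 5 were lower and 0 higher at an unadjusted p under 0.05, against 14.3% of all genes. Its members Sgk1 (0.03), Dusp1 (0.07) and Mt1 (0.00) overlapped between times. Lonrf3 differed by -0.39, Klf10 by -0.30, Nampt by -0.28 with overlapping arrays, Wee1 by -0.39 (-0.19 under normexp) and Por by -0.13. The differences of Rgs16 (0.23) and Cdkn1a (-0.05) were smaller than their SE.

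**Figure D3:**
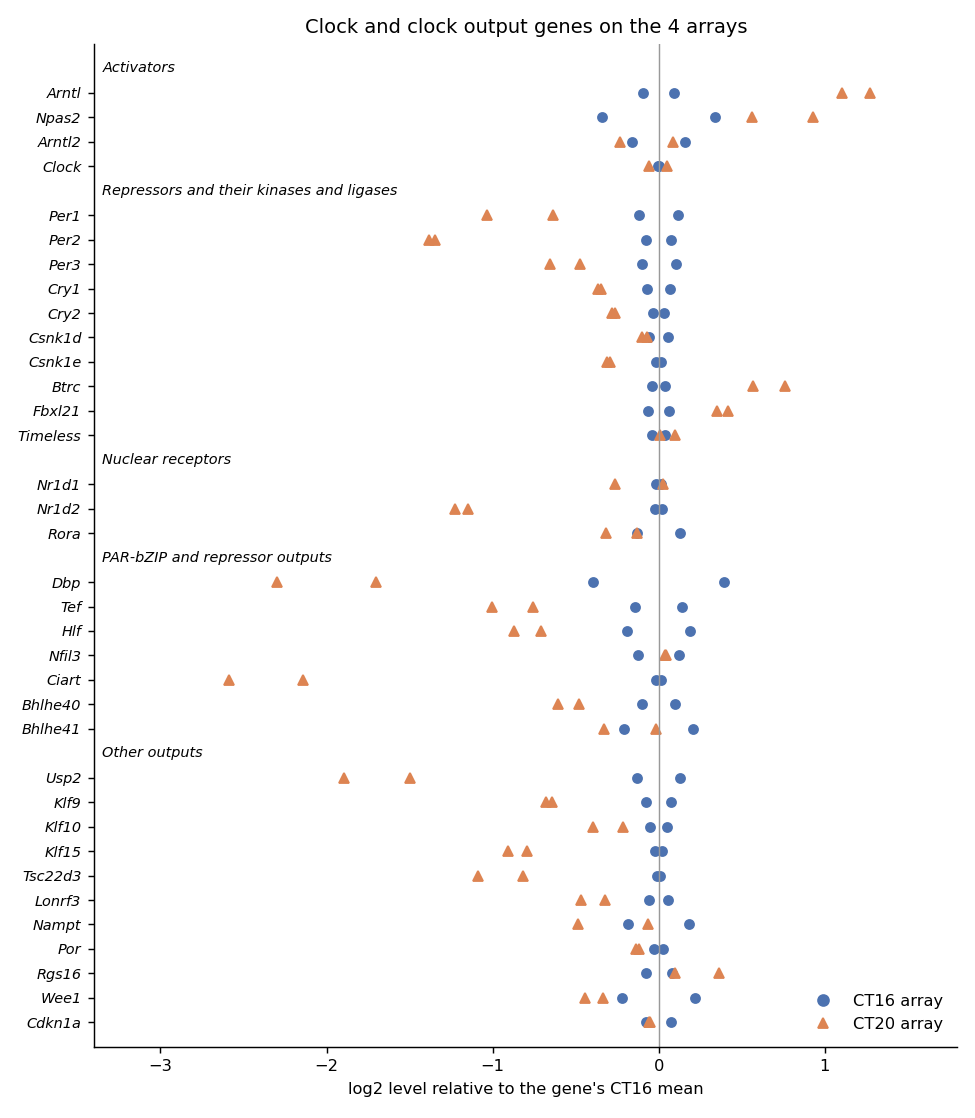
Log2 level of clock and clock output genes on each CT16 array (circles) and each CT20 array (triangles), as the distance from the gene's CT16 mean (x axis). Triangles of Ciart, Dbp, Usp2, Per2 and Nr1d2 lie furthest left and those of Arntl, Npas2 and Btrc furthest right. Those of Nfil3 lie between the circles, those of Clock and Nr1d1 on either side of them, and those of Arntl2 overlap their range.

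Promoters were searched for the elements named above, because the clock genes that differed in opposite directions are known to be read through different ones. The windows run from 250 bases before to 50 bases after a start (RefSeq, GRCm38.p6), and 51 of the 67 clock, connexin and leading genes had one. Genes without a window were not searched, among them Per2, Csnk1d, Btrc, Bhlhe40, Wee1, Klf10 and Spon2. The E-box CACGTG, read on either strand, was in the window of 9 of these genes against 8.09% of all 27025 genes with a window. Nr1d2, Nr1d1, Dbp and Usp2 were not among those 9. The ROR element, TAGGTCA or TGGGTCA on either strand, was in 6 against 7.35%. The D-box, TTATGTAA or TTACGTAA, was in 2 against 1.23%, and the cyclic AMP element TGACGTCA in 1, Hlf, against 2.03%. A match is a description of letters and not a site in use. Shown first are E-box windows of genes lower at CT20, then the ROR element of Arntl, which was higher, and of Nfil3, whose arrays overlapped, and then a D-box of Per3. Each is 30 bases, 5′ to 3′ on the gene's strand, with the element in capitals.
Ciart E-box, chr3:95882269-95882298, minus strand: cgcagggggaggCACGTGcagaaccgcacg
Tef E-box, chr15:81802534-81802563, plus strand: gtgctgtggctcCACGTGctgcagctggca
Per1 E-box, chr11:69098771-69098800, plus strand: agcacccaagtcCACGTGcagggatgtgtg
Cry1 E-box, chr10:85185097-85185126, minus strand: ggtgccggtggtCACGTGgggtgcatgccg
Klf15 E-box, chr6:90462392-90462421, plus strand: tagaacccgtctCACGTGcgcatcggagga
Arntl ROR element, chr7:113207530-113207559, plus strand: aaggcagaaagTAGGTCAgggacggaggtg
Nfil3 ROR element, chr13:52981033-52981062, minus strand: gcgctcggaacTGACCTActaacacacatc
Per3 D-box, chr4:151044852-151044881, minus strand: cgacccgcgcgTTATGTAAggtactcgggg

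The E-boxes of Ciart number 3 in its window, as do those of Klf15, and Per3 has 2 D-boxes; the Nfil3 element is read on the strand opposite to the gene. Bhlhe41, Lonrf3, Zfp943 and Aqp5 also held an E-box, which in Aqp5 overlaps a match to the ROR element. Their differences ran from -1.06 for Aqp5, a water channel gene, to -0.17 for Bhlhe41. The ROR element was in the windows of Arntl, Nfil3, Gjb2, Atp6v0a4, Slc26a9 and Aqp5. Part of the searched genes had been taken for the direction of their difference, so the directions within these sets are not read further.

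Connexins are the subunits of gap junction channels, and Gja1 differed most among them. Gja1 (connexin 43; probe on chromosome 10, 56207239 to 56207298, mm7) stood at -0.67 and -0.84 at CT16 and at -1.62 and -1.90 at CT20. No array of one time reached the other, and the difference was -1.01 ± 0.18, 2.01-fold (adjusted p = 0.139). From CT8 to CT16 its mean had moved by less than its SD, at -0.74 ± 0.28, -0.73 ± 0.20 and -0.75 ± 0.12 (SD, n = 2 each), so that this was the largest of its 6 steps. Under normexp the difference was -0.87 and in the authors' deposited values -0.82. Gjb2 (connexin 26), found in epithelia, differed the other way, at 0.11 and 0.37 and then at 0.80 and 1.0, a difference of 0.66 ± 0.15 (adjusted p = 0.176; a second, dimmer probe gave 0.60).

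The other connexins differed less, or less clearly. Gjb5 differed by 0.43 and Gjd3 by 0.45 (0.10 under normexp), both without overlap, and Gjb6 by 0.20. Gjc1 (connexin 45), present in smooth muscle, differed by -0.29, Gjc3 by -0.43 (-0.10 under normexp), and Gja4, Gja5 and Gjb1 by -0.28, -0.05 and -0.19 with overlapping arrays. Gja3 and Gjd2 were among those too dim to be tested. The junction scaffold gene Tjp1, counted with the family, differed by -0.24, but a second, dimmer probe gave 0.24, so its direction is uncertain. Of the 13 tested, 0 passed, and 2 were higher and 1 lower at an unadjusted p under 0.05, against 14.3% of all genes. The median was -0.05, near that of all genes, with a sign that changed under 4 of 29 settings.

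Outside the lists, the genes with the smallest p among differences of at least 1 were taken in each direction. Spon2, which encodes the secreted matrix protein spondin 2, stood at 1.51 and 1.79 at CT16 and at 3.79 and 3.60 at CT20. The difference of 2.04 ± 0.28 (4.12-fold, adjusted p = 0.136) was the largest of its 6 steps and its CT20 mean lay near its CT4 mean of 3.77 ± 0.26 (SD, n = 2); a second Spon2 probe gave 2.20. With the adipocyte list's mean profile as a covariate it was 1.75. Shisa3, an inhibitor of Wnt and FGF receptor maturation, stood at -2.85 and -2.95 and then at -1.52 and -1.51, a difference of 1.39 ± 0.28. Spon2, Shisa3 and the calpain subunit gene Capns2 (difference 1.26, but 0.40 under normexp) passed only with array weights.

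Others in the higher direction were at low signal, where the size depended on the background correction. Syt17, a synaptotagmin, differed by 1.32, Cfap52, a cilium protein gene, by 1.14, Rptn, a gene of the cornified envelope, by 1.1 and Stpg1 by 1.04; under normexp these were 0.29, 0.74, 0.37 and 0.25. The ion transport genes Slc26a9, a chloride transporter, and Atp6v0a4, a proton pump subunit, differed by 1.11 and 1.02, and a second Atp6v0a4 probe gave 0.43; under normexp they were 0.25 and 0.35. Omp, the olfactory marker protein gene, differed by 1.01 (0.18 under normexp), and Wfdc3 by 1.17 on the brighter probe but by -0.45 on a second one, so its direction is uncertain. Sirt6, which encodes a chromatin deacetylase, had the second smallest p of all genes: it stood at -5.22 on both CT16 arrays and at -4.51 and -4.50 at CT20, a difference of 0.72 ± 0.07 (adjusted p = 0.0852). At that low signal its difference was 0.15 under normexp and 0.19 in the authors' deposited values.

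In the lower direction, Dok7, an organiser of the neuromuscular junction, stood at 2.8 and 3.16 and then at 0.44 and 1.57, a difference of -1.98 ± 0.39, and a second probe gave -2.41. Stc2, a secreted glycoprotein gene, stood at -0.44 and -0.43 and then at -1.34 and -1.58, a difference of -1.02 ± 0.16. Zfp943 differed by -1.0 (-0.45 under normexp) and Arhgef26 by -1.0 too, although another Arhgef26 probe gave 0.31. None of these passed.

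Beside Dok7, some striated muscle markers also differed. Tcap, the titin cap gene of sarcomeres, stood at 2.69 and 1.85 at CT16 and at -0.18 and -0.50 at CT20, a difference of -2.61 ± 0.58 (6.09-fold, adjusted p = 0.176). The summed level of the 16 fast skeletal muscle genes was 78.2 and 76.7 at CT16 and 58.9 and 61.7 at CT20. Of these genes 12 were lower and 4 higher, with differences from -2.61 to 1.49. At an unadjusted p under 0.05, 2 were lower and 0 higher, against 14.3% of all genes in either direction. The median was -0.22, or 0.09 with the adipocyte list's mean profile as a covariate. The 13 slow and cardiac muscle genes had a sum of 132 and 138 and then of 136 and 126, and 8 were lower and 5 higher. Their median was -0.10, or 0.11 with that covariate. At an unadjusted p under 0.05, 2 were lower and 0 higher. Without overlap 6 were lower and 1 higher, against 52.6% of all genes in either direction. Both counts were near the shares of all genes. Whether the muscle content of the samples had a part in these values was not tested, and in whole bladder fewer cells of a type and less RNA per cell cannot be told apart.

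Adipocyte genes stood lower at CT20. Of 17 tested, 15 were lower and 1 higher without overlap, against 27.2% and 25.4% of all genes. At an unadjusted p under 0.05, 3 were lower and 0 higher, against 14.3% of all genes. None passed, and the median was -0.83. Leptin (Lep) stood at -2.16 and -2.59 at CT16 and at -4.73 and -4.41 at CT20, adiponectin (Adipoq) at 4.95 and 4.65 and then at 3.06 and 3.86. Slc2a4, the insulin-responsive glucose transporter, differed by -0.53 ± 0.13, Plin4, a lipid droplet protein gene, by -0.86 ± 0.23 and Cidea by -0.98 ± 0.40, while Pck1 (1.06) and Ucp1 (0.49) differed the other way. All 17 were well above background on all 4 arrays except Ucp1, which was so on 1 of the 2 CT16 arrays. With the list's mean profile as a covariate the difference was -1.26 for Nr1d2 (adjusted p = 0.0192), -1.61 for Per2 and -0.98 for Gja1; Nr1d2, Per2, Stc2 and P2ry13, a purinergic receptor gene, then passed. The part of adipocyte RNA in the other differences was not tested.

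Hepatocyte genes separated the CT20 arrays from each other rather than from CT16. Albumin (Alb) stood at -1.48 and 0.91 at CT16 and at -2.17 and 4.14 at CT20, and the apolipoprotein gene Apoa1 at -6.50 and -4.07 and then at -8.15 and -0.81. Of the 18 tested, 0 had an adjusted or unadjusted p under 0.05 (limma). Without overlap 1 was higher and 1 lower, against 52.6% of all genes in either direction. The median difference of 0.83 depended on the array: it was 3.90 without the first CT20 array and -1.89 without the second. Fga was well above background on neither CT16 array and on 1 CT20 array, and Apoa1 on both CT16 arrays and 1 CT20 array. With the list's mean profile as a covariate Gja1 differed by -0.99 and Spon2 by 2.06; the part of hepatocyte RNA in the other differences was not tested.

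**Figure D4:**
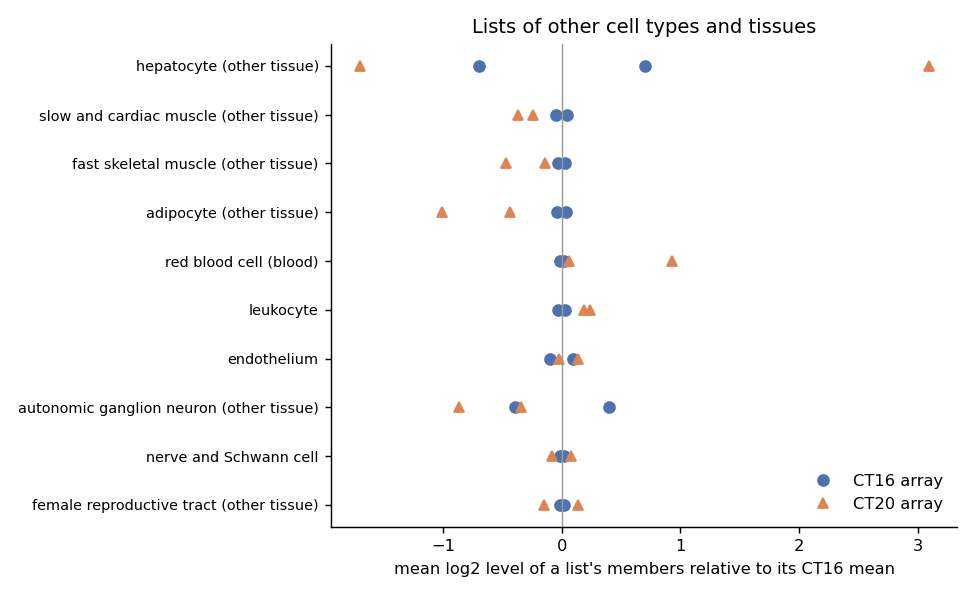
Mean log2 level of the members of 10 lists for other cell types and tissues on each CT16 array (circles) and each CT20 array (triangles), relative to the list's CT16 mean (x axis). The hepatocyte triangles lie at opposite ends, both adipocyte triangles lie left of the circles, and leukocyte, endothelium and Schwann cell lists lie near 0.

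The remaining lists of other cell types had medians nearer to 0, with 2 exceptions. Of 22 leukocyte genes 1 was lower and 0 higher at an unadjusted p under 0.05, against 14.3% of all genes in either direction. It was Cd163, a marker of resident macrophages, at 2.39 and 2.16 and then 1.73 and 1.54 (difference -0.64 ± 0.22). By sign alone 17 of the 22 were higher and 5 lower, with a list median of 0.13. Endothelial genes had a median of 0.09, with Flt1 at -0.34 and Emcn at 0.29. Autonomic ganglion neuron genes were lower for 12 of 13, with a median of -0.38. That median was -0.79 without the first CT16 array, -0.07 without the second and 0.12 with the adipocyte covariate. Without overlap 4 were lower and 1 higher, against 27.2% and 25.4% of all genes. The summed level of these genes was 142 and 145 at CT16 and 164 and 146 at CT20. Nerve and Schwann cell genes had a median of 0.01, the 3 red blood cell genes one of 0.49 (0.96 without the first CT20 array and 0.12 without the second), and the 8 female reproductive tract genes one of -0.06.

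Bladder cell types differed by small amounts, and no member of their lists passed. The 20 smooth muscle contractile genes had a median of -0.09 and none at an unadjusted p under 0.05, though 17 were lower and 3 higher. Without overlap 10 were lower and 2 higher, against 27.2% and 25.4% of all genes. Acta2 stood at 8.53 and 8.65 and then 8.63 and 8.54, and Myh11, the smooth muscle myosin heavy chain gene, differed by -0.20. Of the 25 urothelial genes 22 were higher, with a median of 0.15 (0.01 without the first CT16 array and 0.30 without the second). An unadjusted p under 0.05 was found for 2 of them, against 14.3% of all genes. These were Krt13, a keratin of the intermediate layer, at 1.84 and 2.11 and then 2.54 and 2.45, and Upk1a, a uroplakin of the luminal plaques, at 4.25 and 4.45 and then 4.68 and 4.86.

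Fibroblast and matrix genes had a median of 0.35 (0.19 without the second CT16 array and 0.20 without the first CT20 array), with 23 of 27 higher. Without overlap 15 were higher and 1 lower, against 25.4% and 27.2% of all genes. Lox, whose enzyme crosslinks collagen and elastin, stood at -2.29 and -2.14 at CT16 and at -1.04 and -1.29 at CT20 (difference 1.05 ± 0.36). Loxl1 differed by 0.55 ± 0.17 and the hyaluronan synthase gene Has2 by 0.63 ± 0.21. Adamts1, a protease that cleaves proteoglycans, went against the list: it stood at 1.43 and 1.25 and then at 0.46 and 0.47, a difference of -0.87 ± 0.18, the largest of its 6 steps. Counts at an unadjusted p under 0.05 were 3 higher and 1 lower, a share of 4 in 27 close to the 14.3% of all genes.

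Of the receptors and sensors of the bladder, none passed. Among 23 autonomic receptor genes, 0 were higher and 2 lower at an unadjusted p under 0.05, against 14.3% of all genes in either direction. The list thus had no more such genes than that share. Adra1b, an alpha-1 adrenoceptor, differed by -0.56 ± 0.20 and Ptger3, the EP3 prostaglandin receptor, by -0.85 ± 0.34. The muscarinic receptor gene Chrm3, which drives detrusor contraction, overlapped between times (-0.08 ± 0.56) at a low signal. Among 21 stretch and purinergic genes 1 was higher and 4 were lower at an unadjusted p under 0.05, against 14.3% of all genes in either direction. Nt5e, the ectonucleotidase that makes adenosine, stood at 2.06 and 2.00 and then at 1.35 and 1.39 (difference -0.66 ± 0.16), and Trpc1, a cation channel, differed by -0.64 ± 0.17. The mechanosensitive channel gene Piezo2 differed by -0.39 ± 0.14 and the ATP receptor gene P2rx2 by -0.47 ± 0.20, whereas P2ry12 differed by 0.46 ± 0.16 and Trpv4 by -0.14 with overlapping arrays.

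Transport genes went both ways, 3 higher and 3 lower of 24 at an unadjusted p under 0.05, against 14.3% of all genes. Car14, a membrane carbonic anhydrase, stood at 0.66 and 0.12 at CT16 and at -0.86 and -0.81 at CT20, a difference of -1.23 ± 0.24 (adjusted p = 0.162). Atp1b1, a sodium pump subunit, differed by -0.51 ± 0.14. In the other direction lay Slc9a3r1, a scaffold of transporters, at 0.45 ± 0.13, the epithelial sodium channel subunit Scnn1g at 0.48 ± 0.15 and the potassium channel Kcnj15 at 0.59 ± 0.20. The water channel gene Aqp5, outside this list, stood at -1.81 and -1.69 and then at -3.02 and -2.61.

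Stress genes of the cytosol and of the endoplasmic reticulum were counted apart. Of 18 cytosolic heat shock genes 4 were lower and 0 higher at an unadjusted p under 0.05, against 14.3% of all genes. Without overlap 10 were lower and 1 higher, against 27.2% and 25.4% of all genes, and the median was -0.13. Dnaja1, a cochaperone of HSP70, stood at 4.00 and 3.98 and then at 3.32 and 3.09, a difference of -0.78 ± 0.14 (adjusted p = 0.141), with -0.51 and -0.67 on 2 other probes. Hspa1a, an inducible HSP70, differed by -0.59 ± 0.13. Of 19 endoplasmic reticulum folding genes 11 were higher and 8 lower, with a median of 0.08. At an unadjusted p under 0.05, 3 were higher and 0 lower, close to the 14.3% of all genes in either direction. They were Sdf2l1 at 0.46 ± 0.12, Calr at 0.39 ± 0.15 and Pdia3 at 0.21. The 2 cold-inducible genes differed from each other, Rbm3 at -0.44 ± 0.12 and Cirbp at 0.19 ± 0.21 (-0.02 without the second CT20 array). Rbm3 stood at 4.75 and 4.71 and then at 4.27 and 4.32, without overlap.

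Sterol synthesis genes were higher for 18 of 20, with a median of 0.23 (0.10 without the first CT16 array and 0.40 without the second). At an unadjusted p under 0.05, 4 were higher and 0 lower, against 14.3% of all genes in either direction. Mvd, an enzyme of the mevalonate pathway, stood at 0.88 and 1.17 and then at 1.56 and 1.59 (difference 0.55 ± 0.17), Mvk differed by 0.47 ± 0.14, Fdft1 by 0.54 ± 0.19 and Nsdhl by 0.47 ± 0.17. Fatty acid synthesis genes had a median of -0.06, with Acacb at -0.81 ± 0.32 and Scd2 at 0.32 ± 0.12. Cell cycle genes had the highest median of the bladder and pathway lists, 0.37, with 20 of 26 higher, yet 0 were higher at an unadjusted p under 0.05. The median was 0.18 without the first CT20 array, 0.64 without the second and 0.07 with the adipocyte covariate. Mki67 stood at -1.54 and -1.22 and then at -0.38 and -0.82 (0.78 ± 0.53), and Ccne2, which opens S phase, differed by -0.93 ± 0.39 (-0.42 under normexp).

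No immune or defence gene passed. Isg15, an interferon-induced ubiquitin-like protein, stood at -0.84 and -0.70 and then at -0.10 and -0.20, a difference of 0.62 ± 0.11 (adjusted p = 0.141), and Usp18, which removes it, differed by 0.50 ± 0.17. Of 22 interferon genes 4 were higher and 2 lower at an unadjusted p under 0.05, against 14.3% of all genes, with a median of 0.11 (0.02 to 0.20 with single arrays left out). The lower ones were Gbp3 at -0.78 ± 0.26 and Ifit3 at -0.25 ± 0.09. Il33, an alarmin, differed by 0.57 ± 0.20 in a cytokine list whose median was -0.16, or 0.17 without the second CT16 array. Gpx2, an epithelial glutathione peroxidase, stood at 1.79 and 2.36 and then at 2.79 and 3.0 (difference 0.82 ± 0.20), and the aryl hydrocarbon receptor gene Ahr differed by 0.45 ± 0.14. Immediate early genes, which respond quickly to stimuli, had a median of -0.10, or 0.11 without the second CT16 array and 0.02 without the first CT20 array, with overlapping arrays for Nr4a1 (-1.12 ± 0.52).

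Genes of basic cell machinery differed by small amounts. The 32 cytosolic ribosomal protein genes had a median of 0.00 and a range from -0.14 to 0.19, the 25 proteasome genes a median of -0.02 and the 31 respiratory chain genes one of -0.06. In the last, 14 were lower and 3 higher without overlap, against 27.2% and 25.4% of all genes. At an unadjusted p under 0.05, 2 were lower and 0 higher, against 14.3% of all genes. They were Ndufv2 at -0.28 ± 0.08 and Uqcrfs1 at -0.22 ± 0.09.

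**Figure D5:**
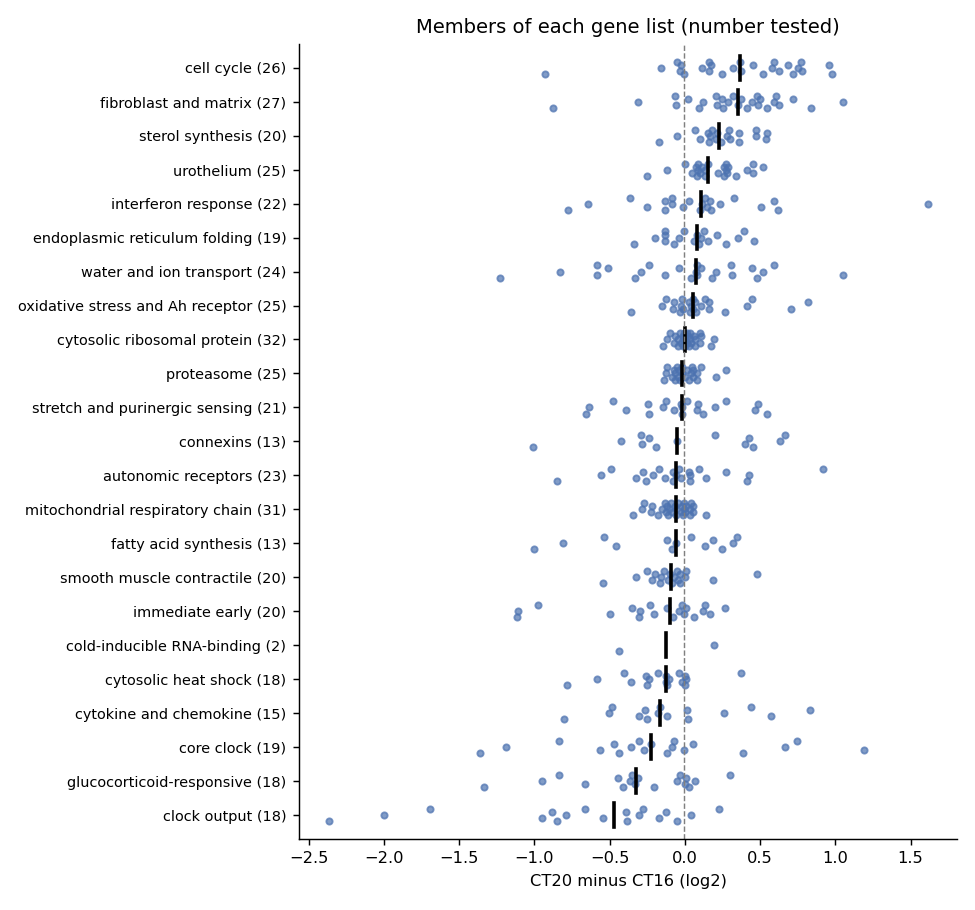
Difference CT20 minus CT16 (log2, x axis) of each tested member (points) of 23 lists for pathways and bladder cell types, with the list's median (black bar), the number tested in brackets and the median of all genes (dashed line). Medians run from -0.47 for clock output to 0.37 for cell cycle, and the ribosomal, proteasome and respiratory chain members cluster tightly around 0.

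The step was set against the other pairs of times that share a slide and no array with it, CT0 to CT4 and CT8 to CT12. Over all genes the differences of the 3 steps had SDs of 0.364, 0.351 and 0.352, with 1, 1 and 0 genes past the threshold and 2627, 1688 and 2398 at an unadjusted p under 0.05. Tested as a difference of steps, (CT20 minus CT16) minus (CT4 minus CT0) passed for 1 gene (0.00544%), again Nr1d2, and 1244 genes had an unadjusted p under 0.05 (6.76%). Nr1d2 had a step of 0.69 from CT0 to CT4, and the 2 steps differed by -1.87 ± 0.13 (limma adjusted p = 0.0150). That call was lost without either CT12, CT20 or CT4 array or the second CT0 array, at adjusted p up to 0.121. Tef, Dbp, Nr1d1 and Ciart came next without passing. Dbp had a step of 1.81 from CT0 to CT4 against -2.0 here, a difference of -3.81 ± 0.39 (adjusted p = 0.0827), Tef one of -1.69 ± 0.16, Nr1d1 one of -2.04 ± 0.23 (steps of 1.92 and -0.12, adjusted p = 0.0984) and Ciart one of -3.96 ± 0.47. In the other direction Chek1, a replication checkpoint kinase gene, had steps of -1.61 and 0.91 (the latter 0.27 under normexp).

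Against CT8 to CT12 no gene passed by limma, and 3075 had an unadjusted p under 0.05 (16.7%). Other settings called from 0 to 31. The smallest p belonged to Rasgrf1, with steps of -0.93 from CT8 to CT12 and 0.55 from CT16 to CT20, a difference of 1.48 ± 0.14 (adjusted p = 0.0605). Per1 had steps of 1.15 and -0.83, a difference of -1.98 ± 0.24 (adjusted p = 0.0760), and Tsc22d3 of 1.23 and -0.95. Cys1, a cilium protein gene, stood at 3.67 and 3.57 at CT16 and at 2.79 and 2.71 at CT20, and its steps were 1.22 and -0.87. Crlf3 had steps of 0.55 and -0.55, and Nr1d2 of 0.01 and -1.19, a difference of -1.20 ± 0.13 (adjusted p = 0.0760).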

How the data were processed

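Whole-bladder RNA was read on 12 Agilent 1-colour arrays, of which 4 belong to the step described. The deposited intensity values come from Feature Extraction (Agilent, version 10.5.1.1) with detrending and background subtraction, per the file headers, and those files also hold other marks per spot (well above background, saturated, outlier). The authors' deposited value table holds log2 values of 27883 probes; R 2.8.1 is named per the submitters' processing notes, and its normalization is not given in the sources used here (lowest correlation with the scanner values 0.979). The part of depth is taken by signal over background: the number of arrays, 2 a time, limits the precision.

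Of 43379 non-control spots, outlier spots were left out and spots of a probe were averaged, giving 41174 probes; 271 missing on an array were dropped. Probes were named by accession (23082), symbol (6582) or synonym (3073) in RefSeq, or kept the file's name (8437). Log2 of the processed signal was scaled by each array's 75th percentile. The brightest probe of each name was kept if well above background on at least 4 of 12 arrays, which left 18390 genes, 3798 with clone or accession names.

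All 6 times entered 1 limma fit (R 4.3.3, limma 3.58.1; 6 residual degrees of freedom), with the contrasts CT20 minus CT16 and its difference from CT4 minus CT0 and from CT12 minus CT8; the threshold was a Benjamini-Hochberg adjusted p of 0.05 over all genes. The script was tested on simulated data. The arrays lay on 3 slides scanned on 1 day. Coordinates of probes are those of the files (mm7). Genes are named by rule: all clock, clock output and connexin genes, up to 12 genes a direction by p among differences of at least 1 without overlap, the 2 members of every other list with the smallest p, and 4 genes a direction in each difference of steps. Other list members named were chosen after their values were seen. The comparison and the lists were chosen with earlier results of these data known. Alternatives were background correction, scaling, filters, probes, variance settings, blocks, single arrays left out and, added after seeing the data, 2 list profiles as covariates.

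Replicate numbers in the titles recur across times, but nothing says that they mark a shared mouse or batch. Some genes that the rule takes are counted in their lists but not reported here by name.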

Additional observations from a re-analysis of the deposited data

Results flagged for a closer look

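The step of Nr1d2, for REV-ERB beta, from CT16 to CT20 differed from its step from CT0 to CT4 by the test of the difference itself. The steps were -1.19 and 0.69, and they differed by -1.87 ± 0.13 (limma adjusted p = 0.0150 over 18390 genes). Both CT20 arrays lay below both CT16 arrays, and both CT4 arrays lay above both CT0 arrays. The call was lost in 7 of 12 fits that left out 1 array and in 3 of 16 other settings, with adjusted p from 0.00236 to 0.121 over all of them, while the value stayed between -2.06 and -1.78. The settings that lost it were median scaling, no filter on dim probes and the replicate block. The slide blocks among the 16 repeat the main fit by design and could not lose it.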

How the results depend on the processing

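On their brightest probe, genes named for the size of their difference kept its direction in the alternatives run, though not its size at low signal. Another probe went the other way for Wfdc3 (-0.45) and Arhgef26 (0.31). Of the genes followed one by one through the alternatives, those named next changed sign under at least one, and none of them had passed. Not every gene named in the report was followed so. Among those left out were Sgk1, Dusp1, Mt1, Trpv4, Chrm3 and the hepatocyte genes Alb and Apoa1. The hepatocyte list's median is given in the report. Clock gave 0.00476 under quantile normalization, 0.00473 in the authors' table, 0.00454 with the hepatocyte covariate and -0.0607 to 0.0487 with single arrays left out. Arntl2 gave 0.00504 in the authors' table and -0.235 to 0.0857 with single arrays left out, and Timeless -0.0419 with the adipocyte covariate. Over the single arrays left out, Nr1d1 ranged from -0.265 to 0.0248, Nfil3 from -0.0813 to 0.163, Bhlhe41 from -0.377 to 0.0367, Cdkn1a from -0.129 to 0.0193, Gja5 from -0.281 to 0.175, Gjb1 from -0.630 to 0.246 and Cirbp from -0.0203 to 0.403. The cause was not tested.

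Where the step had 1 gene past the threshold, it had 0 with the 4 arrays alone, median scaling, no filter on dim probes or every probe on its own, 2 with a filter on CT16 and CT20 (both lower), 5 with no variance prior (4 higher), 71 with array weights (31 higher, 40 lower), 1 higher and 0 lower with the hepatocyte covariate and 4 with the adipocyte covariate (1 higher, 3 lower). Single arrays left out gave 0 to 5 genes, 0 to 2 higher and 0 to 4 lower; 5 came without the first CT16 array and 3 without the second CT20 array.

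Against CT4 minus CT0, in place of 1 gene, 4 were called in the authors' table and with normexp, 5 with an intensity trend, 3 with a filter over all 12 arrays, 2 with no prior or the hepatocyte covariate, and 0 with median scaling or no filter; single arrays left out gave 0 to 125, the latter without the first CT0 array. Against CT12 minus CT8, in place of 0, 31 were called in the authors' table, 26 with the adipocyte covariate, 22 with an intensity trend, 18 with normexp, 14 with a filter over all 12 arrays, 8 with no prior, 4 with every probe, 2 with array weights and 1 with median scaling; single arrays left out gave 0 to 4.

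With the replicate number as a block, the step had 0 genes past the threshold, 0 lower, and 3052 at an unadjusted p under 0.05 against 2627 without it; against CT4 minus CT0 it had 0. Same-numbered arrays deviated with a correlation of 0.370 between CT16 and CT20 and of -0.201 to 0.443 over the 15 pairs of times; what the number marks is not stated. The slide as a block changed no count of the 3 comparisons. It could not, because every time lay within a single slide and had its own mean in the fit, so it is no check of the result. The number of arrays, 2 a time, limits the size of difference that could be resolved.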

Other observations

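Of the interferon list, Mx1 was too dim to be measured at one time. Mx1 was not well above background on either CT16 array and was so on both CT20 arrays, so it was at least 1.38-fold higher at CT20, against the dimmest signal called above background (limma adjusted p = 0.326).

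In the lower direction lay Crlf3, a cytokine receptor-like gene, at 0.70 and 0.74 at CT16 and at 0.20 and 0.14 at CT20. Its difference of -0.55 ± 0.08 was small and tight over the 4 arrays, with an adjusted p of 0.136, and it passed with array weights and under no other setting. Rasgrf1, an exchange factor for Ras, was nearly as tight in the higher direction, at -3.49 and -3.36 and then -2.91 and -2.83.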
